A study of Drosophila melanogaster with 2 samples.

Results

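The embryonic neuroblast temporal factors hb, Kr, nub, pdm2, cas, grh and svp were examined for binding of the Hox protein Abd-B. These 7 genes were listed by name for their role in the neuroblast temporal series, out of 13945 protein-coding genes on the 6 main chromosome arms. The assay was chromatin immunoprecipitation with an anti-GFP antibody and sequencing of the DNA (ChIP-seq). It was run on whole embryos of Drosophila melanogaster, 4 to 20 h old. The embryos came from a transgenic line of the Abd-B-GFP strain, in which Abd-B carries GFP at its C-terminus, and there was 1 group with 2 biological replicates. The sources used here give neither the promoter that drives the tagged gene nor the state of the untagged copies. No untagged or second group was analysed here. Weak binding in many cells and strong binding in a few cells cannot be told apart in whole embryos, and no expression values were at hand to check for neuroblasts.

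Neuroblasts are the neural stem cells of the fly. As they divide, they express a sequence of transcription factors, and the factor present at a division sets the identity of the neurons born from it. The order is the zinc finger proteins Hunchback (hb) and Krüppel (Kr), the POU homeodomain proteins Nubbin (nub) and Pdm2, the zinc finger protein Castor (cas) and then Grainyhead (grh). Seven-up (svp), an orphan nuclear receptor, ends the Hunchback window. Hox proteins make the outcome differ along the body axis, and Grainyhead acts with the Hox protein Abd-A in the death of abdominal neuroblasts.

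The DNA at a chosen summit of each of hb, nub, pdm2 and svp is printed here because these are positions the later values refer to. A summit is the position of highest signal in a peak, and each stretch spans 100 bp on either side of it on the plus strand of dm6. The nub summit was in the authors' list past the irreproducible discovery rate (IDR) threshold. The others were the highest ranked pooled summits of their genes with a partner summit within 100 bp in both replicates, a choice made after their values were seen. The nub summit had such a partner in replicate 1 only. Capitals mark matches, on either strand, to TTTATGG or TTTATTG (Abd-B), TTTATG (Caudal, whose letters lie inside the first Abd-B motif), TAATTA (Hox core), TGATTTAT or TGATTAAT (Hox with Exd), AACCGGTT (Grh), ATGCAAAT (POU octamer), CATAAAAA (Hb), AAGGGTTAA (Kr) and AGGTCA (nuclear receptors).
nub, chr2L:12586911-12587111: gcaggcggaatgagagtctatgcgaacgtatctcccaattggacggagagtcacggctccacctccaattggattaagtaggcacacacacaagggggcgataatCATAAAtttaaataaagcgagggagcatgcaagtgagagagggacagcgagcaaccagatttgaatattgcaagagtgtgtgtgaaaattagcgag
pdm2, chr2L:12657455-12657655: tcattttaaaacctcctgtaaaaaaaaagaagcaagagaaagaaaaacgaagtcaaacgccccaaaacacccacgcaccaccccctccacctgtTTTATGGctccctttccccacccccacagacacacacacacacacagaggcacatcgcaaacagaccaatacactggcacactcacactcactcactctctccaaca
svp, chr3R:12289790-12289990: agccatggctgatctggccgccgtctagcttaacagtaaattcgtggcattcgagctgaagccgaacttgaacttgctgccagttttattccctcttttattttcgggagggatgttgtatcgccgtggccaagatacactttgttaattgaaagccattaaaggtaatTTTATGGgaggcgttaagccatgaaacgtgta
hb, chr3R:8705456-8705656: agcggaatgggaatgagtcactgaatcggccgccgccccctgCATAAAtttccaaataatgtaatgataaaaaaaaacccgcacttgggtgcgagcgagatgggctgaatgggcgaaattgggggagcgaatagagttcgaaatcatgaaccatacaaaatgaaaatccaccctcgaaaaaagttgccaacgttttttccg
In the svp and pdm2 stretches the capitals are a TTTATGG, which begins 69 bp to the right of the svp summit and 6 bp to the left of the pdm2 summit. In the nub and hb stretches they are a CATAAA, the reverse complement of TTTATG.

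Few of the stronger Abd-B-GFP sites lay at the temporal factor genes. Each gene was given a territory, its body plus 15 kb on either side up to the next protein-coding gene that does not overlap it. The 7 territories together covered 293.4 kb and held 3 of the 5033 IDR summits. Of these, 2 were in grh and 1 was just upstream of nub, and hb, Kr, pdm2, cas and svp had none. Thus 2 of 7 genes had an IDR summit in the territory, against 40.0% of all protein-coding genes and 54.7% of the 2470 genes whose territory length lay between the shortest and the longest of these 7. Their density in the IDR list was thus 1.02 per 100 kb, or 1.16 without Kr, where the main arms as a whole had 3.76. These densities cover unlike DNA. The territories stop before the next gene and so leave out promoters of neighbours, while the arms include all promoters. Of all IDR summits 48.6% lay within 500 bp of a TSS. The difference in density over the 7 genes together was not tested, because the genes were listed with earlier results of these data known.

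Gene by gene, none of the 7 counts differed from its share of bases. An exact binomial test, two-sided, was run on the territory of every protein-coding gene, and 0.258% passed at an adjusted p of 0.05 (Benjamini-Hochberg), 30 genes with more summits and 6 with fewer. All 7 genes had an adjusted p of 1 in this exact test, and none had an unadjusted p under 0.05. The smallest was that of svp (exact p = 0.255), with 0 summits where 2.06 would follow from its length. An absence could not have been called here, since 0 summits pass even without adjustment only in territories of 99 kb or more and the longest of these, at nub, was 70.5 kb. Peaks are not independent and are denser near genes, so the test describes this list only.

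The territories were not empty of weaker peaks. The authors' pooled list extends to 29999 peaks on the main arms, far below the IDR threshold, and 64 of them fell in the 7 territories. That is 21.8 per 100 kb, close to the 22.4 per 100 kb of the main arms. Only 3 of the 64 (4.69%) were in the IDR list, while 16.8% of all pooled summits were. The genes differed from each other in this longer list: grh held 37.4 and svp 34.7 pooled summits per 100 kb, hb 25.3, nub 18.4 and pdm2 18.2, cas 5.27 and Kr none.

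**Figure D1:**
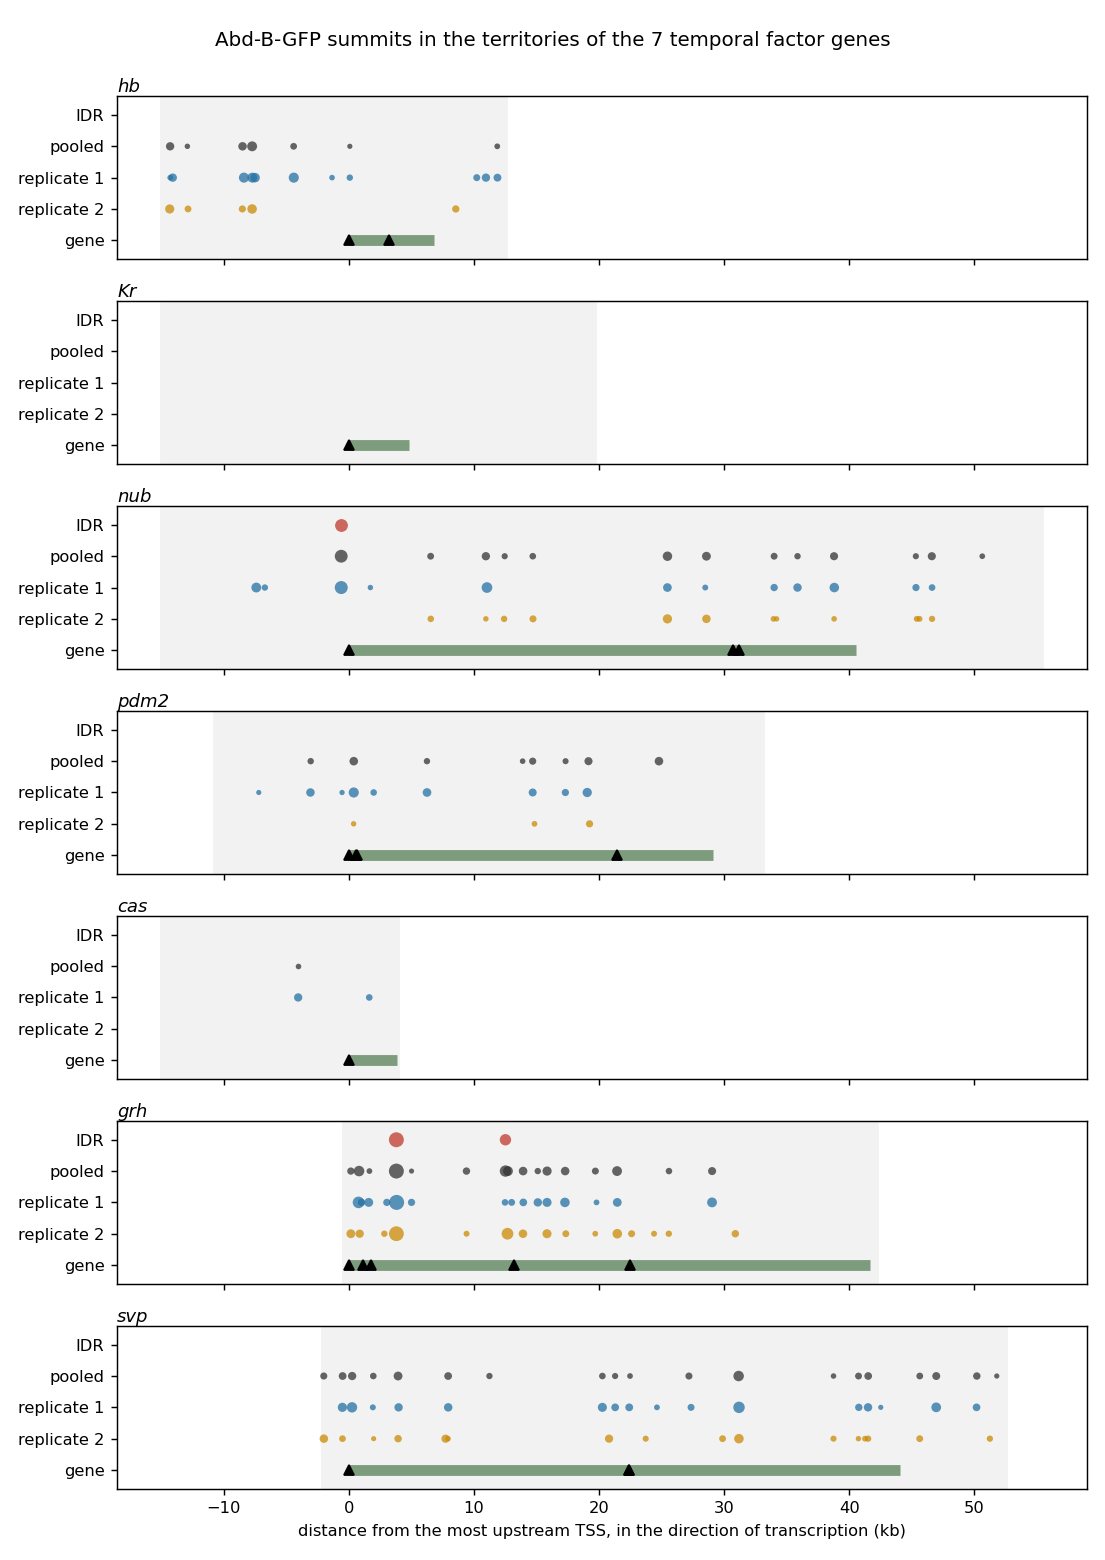
Summits in the IDR, pooled, replicate 1 and replicate 2 lists along each territory (grey), by distance in kb from the most upstream TSS in the direction of transcription. Green bars are gene bodies, triangles TSSs, and larger points have a better rank in their list. IDR summits are present at nub (1) and grh (2) only, and the Kr panel is empty in all 4 lists.

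**Figure D2:**
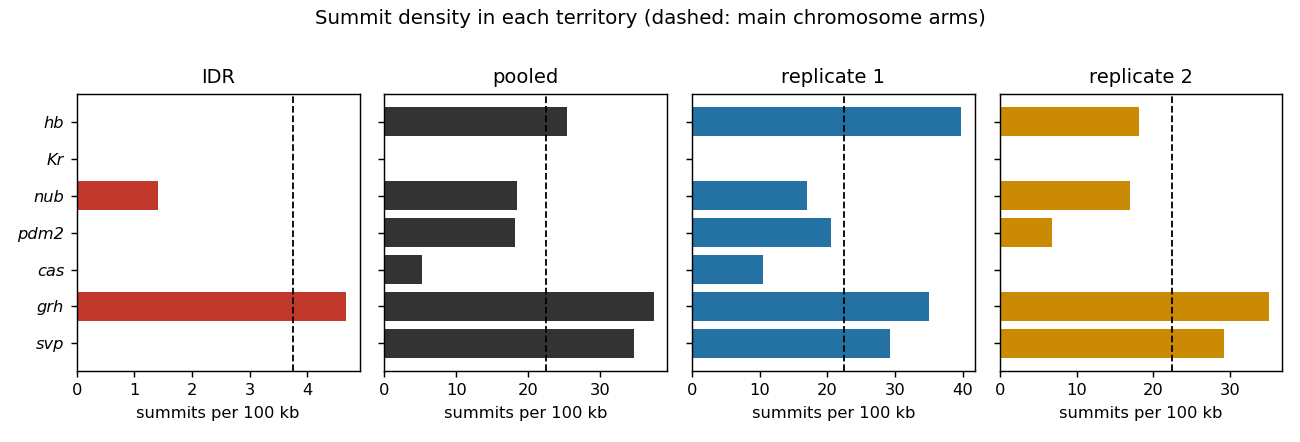
Summits per 100 kb of territory for each gene (bars) in each list, each panel with its own horizontal axis from 0. The dashed line is the density over the main arms, 3.76 per 100 kb in the IDR list and 22.4 in the others. The grh bar is above the line in every panel, the svp bar in every panel but the IDR one, and the Kr bar is at 0 throughout.

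Peaks were ranked within a list by the authors' signal value, with rank 1 the highest. By the rank of the strongest pooled summit in each territory, the order was grh (606), nub (1937), svp (5692), hb (7233), pdm2 (11666) and cas (27011), with no summit at Kr. Of all protein-coding genes, 1116 had a better ranked summit than grh, 3008 (21.6%) than nub, 5911 (42.4%) than svp, 6592 (47.3%) than hb, 7875 (56.5%) than pdm2 and 9737 (69.8%) than cas. The replicates did not give the same order. In replicate 1 the best ranks were 573 for grh, 1775 for nub, 3736 for svp, 6609 for pdm2, 6620 for hb and 12754 for cas. In replicate 2 they were 657 for grh, 8332 for hb, 8362 for svp, 9237 for nub and 17892 for pdm2, and cas had no peak. In both replicates grh was first, while nub moved from the second to the fourth place.

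**Figure D3:**
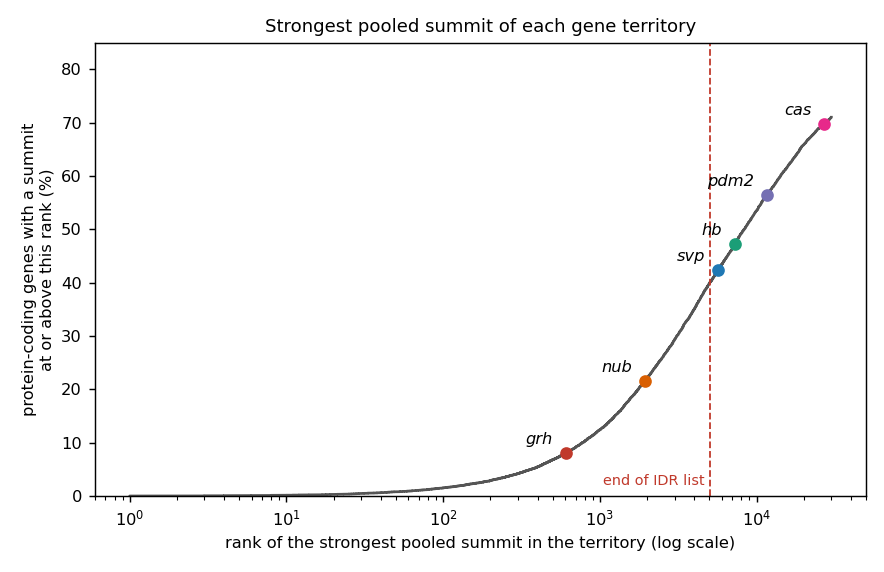
Cumulative share of protein-coding genes (%) whose territory holds a pooled summit at or above a given rank (log scale), with 6 temporal factor genes as points and the end of the IDR list dashed. The points of grh and nub lie left of that line at ranks 606 and 1937, those of svp, hb, pdm2 and cas right of it, and Kr has no summit to plot.

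hb is the first factor of the series, at 3R 8690980 to 8697822 on the minus strand. Its territory held 11 peaks in replicate 1, 5 in replicate 2 and 7 in the pooled list, none with a q-value of 0.05 or less in the pooled list. The strongest, with the sequence above, lay between genes 7734 bp upstream of the nearest hb TSS, and a TSS of the neighbouring gene CG8112 was slightly nearer (7377 bp). It had pooled rank 7233 and signal value 112, replicate 1 rank 7005 at 14 bp and replicate 2 rank 8332 at 1 bp, so both replicates placed it alike. Another, 14290 bp upstream of hb but 821 bp from a TSS of CG8112, also had both partners, though with ranks of 26762 and 9539. At the hb promoter itself a pooled summit of rank 29335 lay 75 bp downstream of a TSS, with a replicate 1 partner of rank 22366 and none in replicate 2 within 1 kb. The nearest IDR summit outside the territory was 14274 bp from the gene, at a promoter of Unc50 and its neighbours (rank 868).

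Kr, the next factor, at 2R 25226611 to 25231394, had no peak in any of the 4 lists. Its territory of 34.8 kb lies inside the longer gene CG9380. Of 862 protein-coding genes with a territory at least that long, 16 (1.86%) were without a summit in the pooled and replicate lists. The position of Kr bears on this value. The last peak of 2R in any list was 96.3 kb from the end of the arm, and the Kr TSS lay 60.3 kb from that end. No list thus had a peak at any of the 4 protein-coding genes that start beyond the last peak, Kr among them. The assembled sequence there had no unknown bases. Whether reads could be placed in this region was not tested, as the lists hold no coverage. For Kr, then, these lists do not separate a lack of binding from a lack of signal at the arm's end.

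nub and pdm2 encode closely related POU proteins that act together in the window after Krüppel, and they lie next to each other on 2L. nub (12587625 to 12628135) had its IDR summit at 12587011, 614 bp upstream of its first TSS and outside any gene, with pooled rank 1937, signal value 309 and a −log10 q-value of 3.82. This peak was present in replicate 1 at a distance of 3 bp, with rank 1775 and signal value 117. In replicate 2 the nearest peak was 7159 bp away, although that list reaches down to a signal value of 26.2. The IDR summit of nub thus has a partner in the replicate 1 list only, while passing the authors' threshold: the IDR list was the same as the 5033 strongest pooled peaks. No listed peak is not the same as no signal. At the IDR summits with both partners the pooled signal value was close to the sum of the replicate values, with a median ratio of 1.00 (5th to 95th percentile 0.952 to 1.06 over 4634 summits). At nub the pooled value exceeded that of replicate 1 by 192. The sum was seen only where both replicates had a peak, and the scale of the values is not stated. The lists therefore do not show whether replicate 2 had signal at nub, and this was not tested. Of all IDR summits 27 (0.536%) were as far from a replicate 2 summit as the one at nub, and 81 (1.61%) had none within 1 kb. These 81 had a median pooled value of 2.81 times that of replicate 1, against 2.95 times at the summits with both partners and 2.65 times at nub.

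Both replicates shared other, weaker sites in the nub territory. Of its 12 pooled summits below the IDR list, 7 had a partner in both replicates, 5 of them in the nub gene and 2 past its 3′ end in Ref2. The strongest, rank 8631 at 12613090, lay in an intron of nub, 5255 bp upstream of the nearest nub TSS. It was also inside the overlapping gene Ref2, whose TSS was nearer (1614 bp). Its partners were at 4 bp in replicate 1 (rank 11210) and 3 bp in replicate 2 (rank 9237). A summit of rank 12753 at 12598574, in an intron, had a replicate 1 partner of rank 5235 and a replicate 2 partner of rank 27712.

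pdm2 (12657165 to 12686306) had no IDR summit, and the nearest outside its territory was 34.7 kb away in the genes MRP and Pih1D1 (rank 4959). Its territory held 9 peaks in replicate 1 and 3 in replicate 2. The strongest of its 8 pooled summits, rank 11666 in an intron, had no partner within 5 kb in either replicate. The next, rank 11721 at 12657555, lay at the promoter 167 bp upstream of a TSS and was the 1 summit of pdm2 with both partners, at 1 bp in replicate 1 (rank 6609) and 11 bp in replicate 2 (rank 28055). The 2 genes thus differed in their strongest summit in the pooled list and in replicate 1. In replicate 2 the best ranks were 9237 for nub and 17892 for pdm2, and neither came within the 5033 strongest peaks.

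cas, which closes the Pdm window, lies at 3R 5712975 to 5716805 and had the fewest peaks after Kr. Its territory, the shortest of the 7 at 19.0 kb, held 2 peaks in replicate 1, none in replicate 2 and 1 in the pooled list. The pooled summit, 4055 bp upstream of the TSS, had rank 27011 and the same position in replicate 1 (rank 12754). An IDR summit lay 7323 bp beyond the gene's 3′ end in an intron of the neighbouring gene plx (rank 2486), with partners in both replicates.

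grh, the last factor of the series, at 2R 17801132 to 17842820, was the one gene with a strong summit in both replicates. This IDR summit, at 17804927, was intronic and 2060 bp downstream of a TSS, and it had pooled rank 606 and signal value 597. Its partner in replicate 1 was 20 bp away with rank 573 and signal value 212, and its partner in replicate 2 was 2 bp away with rank 657 and signal value 384. The 3 ranks are close to each other.

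The second grh summit of the IDR list was placed less firmly. At 17813646, in an intron 698 bp upstream of another TSS, it had pooled rank 3887 and signal value 187. Replicate 1 had a summit 34 bp away, but at rank 21187. Replicate 2 had rank 3331, but 164 bp away and 37 bp from another pooled summit at 17813847 (rank 7330), whose peak overlaps this one. Within 100 bp it therefore had no partner in both lists, and within 250 bp it had. Of the 3 IDR summits of these genes 1 had partners within 100 bp in both replicates, against 92.1% of all IDR summits.

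Below the IDR threshold grh had 14 pooled summits, and 6 of them had partners in both replicates. The strongest, rank 5569 at 17801944, lay 302 bp upstream of a TSS, near the start of the antisense transcript CR45270, with a −log10 q-value of 1.80. It had rank 3482 in replicate 1 and 12892 in replicate 2. Across its 5 annotated TSSs grh had 7 pooled summits within 1 kb of a TSS, and hb, nub, pdm2 and svp had 1, 1, 1 and 3. Of the grh summits 3 lay inside an annotated roo transposable element in an intron, and 2 of these had both partners. Reads from such a repeated element can fit several places, and the sources used here do not say how they were handled.

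svp, the switching factor, at 3R 12258737 to 12302785, had no IDR summit but the most pooled summits of the 7 genes, 19 in a territory of 54.8 kb. Both replicates had 16 peaks there. The strongest, at 12289890 with the sequence above, was intronic, 8738 bp downstream of a TSS. It had pooled rank 5692, signal value 137 and a −log10 q-value of 1.74, which is past a q-value of 0.05 but below the IDR list. Its partners were at 31 bp in replicate 1 (rank 3736) and 25 bp in replicate 2 (rank 8362). A further 6 weaker svp summits had both partners, among them rank 10749, within the span of svp but in coding sequence of the overlapping gene CG44037, and rank 15165, 502 bp upstream of the first TSS.

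With the pooled list limited to a q-value of 0.05 or less, 3 of the 7 genes had a summit (grh, nub and svp), against 45.5% of all protein-coding genes. Within 1 kb of a TSS, 2 of 7 genes had an IDR summit (nub and grh), against 25.0% of all genes. Within 500 bp none of the 7 had one, against 21.8% of all genes. Of the 61 weaker pooled summits in the territories 23 (37.7%) had partners in both replicates, close to the 32.1% of all pooled summits below the IDR list. Likewise 10 of the 61 (16.4%) lay within 500 bp of a TSS of any gene, against 17.4% of all weaker pooled summits. In number, support and promoter position the weaker summits of these genes were thus near the background.

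**Figure D4:**
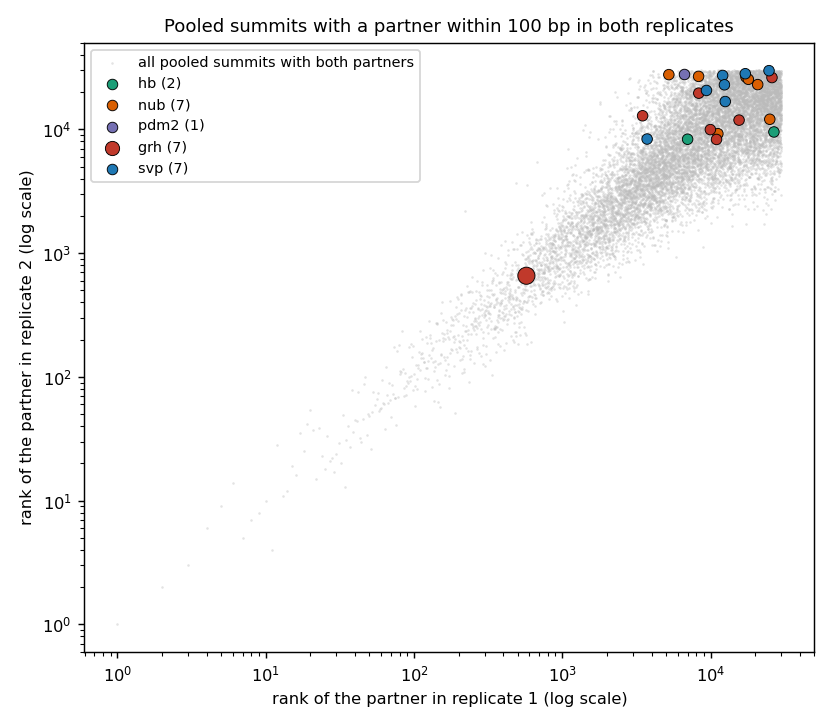
Rank of the replicate 1 partner against that of the replicate 2 partner (both log scales) for pooled summits with both partners within 100 bp: all such summits in grey, those of the temporal factor genes in colour, with their number in the key. The larger grh point, at ranks 573 and 657, lies on the main diagonal band, and the other 23 points lie at rank 3482 or worse in replicate 1 and rank 8297 or worse in replicate 2.

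The sequence at the summits was described for the 3 IDR summits and the 23 weaker ones with both partners. The Abd-B motif TTTATGG or TTTATTG was within 100 bp of none of the 3 IDR summits, and 19.2% of all IDR summits held it. It was at 7 of the 23 weaker summits, against 20.9% of all 8013 weaker pooled summits with both partners and 13.0% of all windows of 201 bp along the main arms. Those 7 were 2 in nub, 1 in pdm2, 2 in grh and 2 in svp. The Hox core TAATTA was at the stronger grh summit, the joint Hox and Exd site TGATTAAT at the other grh summit, and the Caudal site TTTATG at the nub summit and the stronger grh summit. These letters were held by 19.5%, 1.55% and 28.4% of all IDR summits. Of the 23 weaker summits 11 held TTTATG, against 29.6% of all 8013, and 3 held TAATTA, against 13.3%. GAGAG (GAGA factor) was at 2 of the 3 IDR summits, against 20.1% of all IDR summits. It was at 7 of the 23 weaker ones, against 22.7% of the 8013. None of these differences was tested. A match is a description of the letters and no evidence of a site in use. Of the sites of the factors themselves, CATAAAAA (Hb) was at 2 of the 26 summits and AGGTCA (nuclear receptors) at 1, all among the 23 weaker ones. The shares were 6.10% and 4.73% of the 8013 weaker summits, and 5.80% and 4.03% of all IDR summits. None of the 26 held AACCGGTT (Grh), ATGCAAAT (POU) or AAGGGTTAA (Kr). These were held by 0.349%, 3.44% and 0.212% of the 8013, and by 0.238%, 3.06% and 0.358% of all IDR summits. The counts for the factors' own sites were near both backgrounds.

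GC content over 201 bp was 47.3% at the nub IDR summit and 31.8% and 35.8% at the stronger and weaker grh ones, against a mean of 34.9% (SD 7.25 over 5033 summits) for the IDR list. The 23 weaker summits had a mean of 46.8% (SD 7.50), from 27.9 to 64.2%, and all 8013 weaker summits with both partners a mean of 42.6% (SD 8.46). These values were not tested.

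Other genes of neural patterning were taken from 7 lists. Of 58 genes 35 (60.3%) had an IDR summit in the territory, against 40.0% of all genes and 54.7% of those with territories as long as the 7. The 58 territories run from 5.82 to 162 kb, beyond the 19.0 to 70.5 kb of the 7. The 54.7% is therefore not matched to them in length. Near a TSS, at up to 1 kb, 14 of the 58 held an IDR summit, close to the 25.0% of all genes. The lists were chosen with earlier results known, and no difference between them and the temporal factors was tested. Among the optic lobe temporal factors 7 of 11 had one, led by the neighbours slp1 and slp2, which share a summit of rank 190, and hth was the 1 gene of the 7 lists that passed the exact binomial test, with 19 summits in 162 kb (adjusted p = 0.0211). Among the later nerve cord factors 7 of 8 had one, with chinmo (rank 16) and mamo (rank 310) first. Their territories are long, 598 kb together, and held 13 IDR summits. That is 2.17 per 100 kb, below the 3.76 of the main arms. Subtemporal and postmitotic identity genes had one at 7 of 11, led by zfh1 (rank 256) and sqz (rank 482). For neuroblast identity and division genes the count was 8 of 13, led by numb, which directs asymmetric division (rank 155), and pnt (rank 1148). Spatial identity genes had 3 of 9, led by wg (rank 1280) and Dr (rank 1752). The cell death genes had 2 of 4, hid (rank 719) and rpr (rank 2093), and of the distal antenna pair dan held IDR summits (best rank 1800) and danr none. Per 100 kb the subtemporal and postmitotic (2.68), spatial (2.01) and cell death (2.53) lists were also below the main arms. Above them were the optic lobe list (5.97), the distal antenna pair (9.02) and, by little, the neuroblast identity and division genes. Single genes weigh on these higher values. In the optic lobe list hth held 19 of the 29 summits, and the summit shared by slp1 and slp2 is counted for both. Among the neuroblast identity and division genes pnt held 7 of the 19, and dan held all 4 of its pair. A high share of genes with a summit is thus not the same as a high density, and these densities were not tested.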

How the data were processed

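Per the deposited text descriptions, the authors used the alignment of a replicate with a control to make its list, both alignments for the pooled list, and all of these lists for the IDR list. Build dm6 is given in the labels, as is sonication to 200 to 800 bp. The sources used here name neither aligner nor peak caller. The authors' signal value per peak, of unstated scale, was used for ranks within a list, and pooled values were set beside the sum of the replicate values. The deposited −log10 q-value was used at a q-value of 0.05. The lists hold no read counts, so depth is unknown and differences in depth were not corrected.

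Peaks on 2L, 2R, 3L, 3R, 4 and X were ordered by signal value, with ties set by q-value and position. Genes and TSSs came from Ensembl release 115 (BDGP 6.54), and sequences from the RefSeq copy of the same assembly, into which all peaks fitted. Transposable elements did not count as genes. A partner is a replicate summit within 100 bp. Territory counts were tested by an exact binomial test over all protein-coding genes with Benjamini-Hochberg adjustment, which was checked on simulated data. The alternatives were other peak lists, flanks, borders, windows and distances. The replicates are biological, per the labels, and 1 group gives no test between groups. Named genes are the 7 members, neighbours of their territories and the 2 strongest of each list. hth and the summits shown for hb, pdm2 and svp were chosen after their values were seen. The members and lists were chosen with earlier results of these data known. The software was scipy 1.17.1 for the tests, matplotlib 3.10.9 for the figures, and pandas 2.3.3 with numpy 2.4.6 under Python 3.11.15.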

Additional observations from a re-analysis of the deposited data

How the results depend on the processing

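No gene of the 7 was called by the exact binomial test under any of the alternatives, and none had an unadjusted p under 0.05. This is not a sign of stability. In the main list 0 summits could not be called in territories under 99 kb, and the limit was not worked out for the alternatives. The total of 3 summits and the 2 genes that hold them were the same with flanks of 5 kb or 30 kb and with territories that stop at a gene of any type. With no stop at the next gene the total was 6 summits in 4 genes (hb 1, cas 1, nub 1 and grh 3), while the share of all genes with a summit rose to 74.0%. The 1000 strongest IDR peaks left 1 summit in 1 gene, grh, and pooled peaks with a q-value of 0.05 or less gave 5 summits in 3 genes. With 1 replicate left out the total was 2 to 4 summits in 1 to 3 genes: without replicate 1, by the replicate 2 list, nub had none, and without replicate 2 svp gained 1. Restricting the IDR list to summits with a partner in both replicates, an alternative added after seeing the data, left 1 summit in 1 gene (grh). In the 1 kb window around TSSs 2 genes had an IDR summit, and 0 with a 500 bp window or the 1000 strongest peaks, and 1 to 2 with 1 replicate left out. IDR summits with both partners numbered 1, and 2 within 250 bp. The causes were not tested. Peak lists without coverage limit all of this: a gene without a summit may lie in DNA that few reads reached.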

Other observations

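The gap at the end of 2R was not the widest without peaks at an arm's end. After the last pooled summit 104 kb of 2R, 89.0 kb of X and 17.3 kb of 3L followed. Before the first pooled summit lay 836 kb of 4, 335 kb of 2R, 155 kb of X and 87.6 kb of 3R. The replicates differed most at hb (11 and 5 peaks) and pdm2 (9 and 3 peaks) and had the same number at nub (12 each), grh (15 each) and svp (16 each).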
